A study of Cucumis melo with 4 samples.

Results

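Unigene35217_All and Unigene35218_All, written here without their common ending, are 2 of the 76260 transcripts (unigenes) assembled from melon (Cucumis melo) RNA. They were chosen by identifier, with their measured levels known. The files that list expression per library annotate Unigene35217 as glyoxysomal malate synthase and Unigene35218 as chloroplastic NADP malate dehydrogenase. Other deposited tables go against these names, as shown next, so both are called by their identifiers.

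The study set 4 sex types side by side, with 1 library each. The gynoecious library came from plants labelled AAgg, which bear female flowers. The hermaphrodite library came from plants labelled aaGG, which bear bisexual flowers, and the andromonoecious library from plants labelled aagg, which bear male and bisexual flowers. The monoecious library came from plants labelled AAGG, which bear male and female flowers. The headers of the deposited tables on the a and g loci exchange the genotypes of the hermaphrodite and andromonoecious plants. Each library mixed RNA of several recombinant inbred lines from leaves, axillary buds and flower buds, so fewer cells of a type and less RNA per cell cannot be told apart. The labels of every library give 2 true leaves at the first stage, 1 week after transplanting, and flower buds below 2 mm. No sex type has a second library, and intervals here are 95% intervals of counting error only.

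Malate synthase joins glyoxylate and acetyl-CoA into malate. With isocitrate lyase it forms the glyoxylate cycle, which in cucurbit seedlings turns stored oil into sugar and is also induced in senescing leaves. NADP malate dehydrogenase reduces oxaloacetate to malate in the chloroplast, is switched on by thioredoxin in the light, and feeds the malate valve that exports reducing power. The names thus stand for enzymes that make the same acid in different organelles.

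Library totals ran from 25.51 to 27.04 M reads, and 66492 to 69811 unigenes had at least 1 read. The hermaphrodite library was run on another flow cell than the other 3, so flow cell and sex type cannot be told apart there. Of the tissue markers looked for, the comparison tables named 1 for pollen and anther, the PHD finger protein MALE STERILITY 1 (Unigene17436), a regulator of tapetum development in Arabidopsis. It had 0 reads in the gynoecious, 197 in the hermaphrodite, 451 in the andromonoecious and 133 in the monoecious library. For seed and oil reserve they named a late embryogenesis abundant protein and isocitrate lyase, and for senescence the protein DIN1, all given beside isocitrate lyase. No leaf or flower marker was named there, so those tissues could not be checked by the names in those tables.

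The 2 names were checked against the authors' 4 tables of differing genes. The table for gynoecious against monoecious gives a unigene identifier and a melon coding sequence (CDS) for 1058 entries. Only 16 of these carried the same CDS in the library files, while 217 carried another and 816 none. Of the 11737 unigenes that the library files name, 11140 stand in the deposited BLAST table, all 11140 with the CDS of their row there, and 597 do not stand in it. Over all 4 comparison tables, 1834 pairs of a CDS and a unigene were found. For the 377 of these with a row in the BLAST table, the CDS was the same in 1. For the 23 that the library files name without such a row, it was the same in 23. Both members have a row in the BLAST table.

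The order of the BLAST table was compared under both namings. By the comparison tables, the CDS number rose along the 377 rows without an inversion (Spearman rho 1, a description across rows). By the library files, rho was -0.0058 with 192 inversions. The CDS and product columns of the BLAST table instead ran in alphabetical order of product for 94.8% of neighbouring rows.

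**Figure D1:**
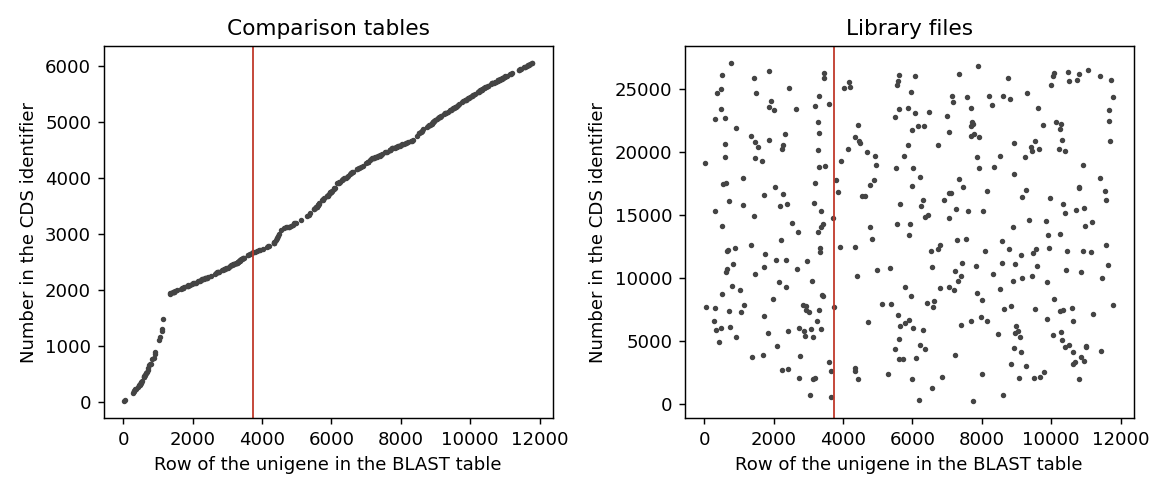
Row of each of 377 unigenes in the BLAST table (horizontal) against the number in its CDS identifier (vertical), by the comparison tables (left) and by the library files (right). The red line marks the rows of Unigene35217 and Unigene35218. The points climb without an inversion on the left and show no order on the right.

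Unigene35218 stands in row 3743 and Unigene35217 in row 3744 of the BLAST table. The nearest rows that the comparison tables name are 3741, Unigene43231 with CDS MELO3C002672, and 3799, Unigene28665 with CDS MELO3C002682. The CDS that the library files give to the pair, MELO3C002350 for Unigene35217 and MELO3C012389 for Unigene35218, both lie outside that interval. None of the 9 CDS of the table from MELO3C002672 to MELO3C002682, both ends included, has malate in its product name (0 of 9). CDS of that interval that are absent from the table were not checked. Neither member is in a comparison table, so no other name is given to them.

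The members matched the same stretch of a CDS in the BLAST table. Their own sequences were not used here, so they were not aligned to each other. Unigene35218 is 589 nt long and matched CDS positions 13 to 557 with 100% identity. Unigene35217 is 596 nt long and matched the same positions with 96.75% identity, with 9 mismatches and 9 extra bases in 1 gap. Both lie on the opposite strand to the CDS. Of 3753 pairs of consecutively numbered unigenes in the BLAST table, 459 (12.2%) shared their CDS positions in this way. Each CDS name occurs once in that table, so names cannot show whether such a pair belongs to 1 CDS. How the authors divided reads between unigenes of like sequence was not stated in what was read here, so the level of each member alone is uncertain.

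Unigene35218 was highest in the gynoecious library and lowest in the monoecious. It had 1487 reads in the gynoecious, 690 in the hermaphrodite, 237 in the andromonoecious and 110 in the monoecious library. On the RPKM scale (reads per kilobase per M reads) its levels were 96.8 (91.9 to 102), 43.3 (40.1 to 46.7), 15.8 (13.8 to 17.9) and 7.08 (5.82 to 8.53) in the same order. The 4 intervals do not overlap, and the gynoecious level lay above 97.6% of all unigenes in that library, against 77.7% in the monoecious.

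Unigene35217 had another order, with the andromonoecious library on top. It had 177 reads in the gynoecious, 0 in the hermaphrodite, 285 in the andromonoecious and 128 in the monoecious library. Its levels were 11.4 RPKM (9.77 to 13.2), 0 RPKM (up to 0.229), 18.7 RPKM (16.6 to 21.1) and 8.14 RPKM (6.79 to 9.68) in that order. The intervals do not overlap, though those of the gynoecious and monoecious libraries come close. The hermaphrodite library was the only 1 of the 4 without a read.

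**Figure D2:**
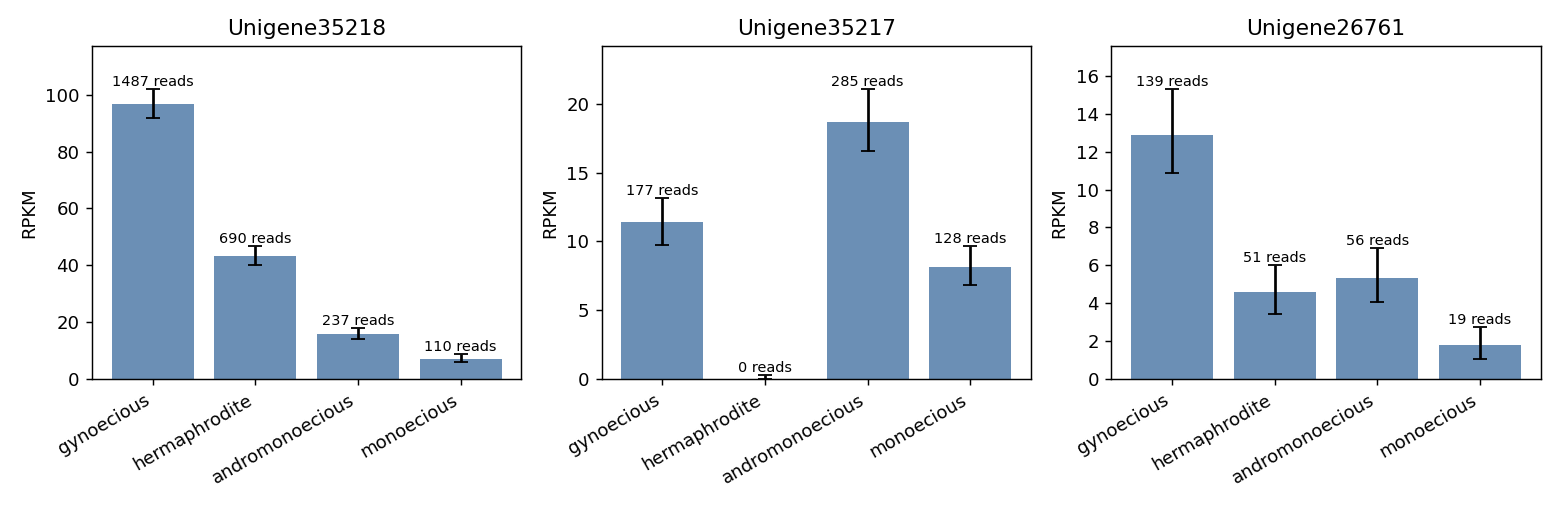
RPKM of Unigene35218, Unigene35217 and Unigene26761 (vertical, each with its own linear axis) in the 4 libraries, with exact 95% Poisson intervals as bars of counting error and the reads above each bar. Unigene35218 falls from left to right, and Unigene35217 has 0 reads in the hermaphrodite library and 285 in the andromonoecious.

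A count of 0 beside at least 100 reads in each of the other 3 libraries was rare. It occurred in 25 of 19878 unigenes (0.126%), and of these 19 were at 0 in the gynoecious, 3 in the hermaphrodite, 1 in the andromonoecious and 2 in the monoecious library. The other two at 0 in the hermaphrodite library, named after their values were seen, were Unigene42512 and Unigene48986. Whether the flow cell has a part in these counts was not tested.

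Between single libraries, Unigene35218 differed by at least 4-fold in 3 of the 6 pairs, on reads scaled by TMM. It was 12.7-fold higher in the gynoecious than in the monoecious library (interval 10.4 to 15.5), a pair in which 5.02% of 34821 unigenes were at least 4-fold higher. It was 5.6-fold higher in the hermaphrodite than in the monoecious library (4.57 to 6.91), where 2.1% of unigenes were. It was 5.43-fold lower in the andromonoecious than in the gynoecious library (4.73 to 6.26), where 2.18% were.

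The other 3 pairs were closer. Unigene35218 was 2.33-fold higher in the andromonoecious than in the monoecious library (1.85 to 2.95). It was 2.26-fold lower in the hermaphrodite than in the gynoecious library (2.07 to 2.48), and 2.4-fold higher in the hermaphrodite than in the andromonoecious (2.07 to 2.8). Each interval leaves out equal levels, but there is no replicate to set beside it.

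Unigene35217 differed by at least 4-fold only in the 3 pairs with the hermaphrodite library. Against a floor of 3 reads in that library, it was at least 47.8-fold lower in the hermaphrodite than in the monoecious, at least 61.9-fold lower than in the gynoecious and at least 115-fold lower than in the andromonoecious. At least 4-fold lower in these pairs were 2.46%, 2.19% and 2.43% of all unigenes. Among the other libraries it was 1.3-fold higher in the gynoecious than in the monoecious (1.03 to 1.64), 2.41-fold higher in the andromonoecious than in the monoecious (1.95 to 2.99) and 1.86-fold higher in the andromonoecious than in the gynoecious (1.54 to 2.26).

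The share of the pair's reads that fell to Unigene35217 was lower in both libraries without male flowers than in both with them. The same lack of overlap between these sides held for 59 of 162 other pairs at the same CDS positions (36.4%). It was 10.6% in the gynoecious library (177 of 1664 reads, exact interval 9.2 to 12.2). It was 0% in the hermaphrodite library (0 of 690 reads, where 3 reads would be a share of 0.435%). In the libraries with male flowers it was 54.6% of 522 reads (50.2 to 58.9, andromonoecious) and 53.8% of 238 reads (47.2 to 60.2, monoecious). These intervals overlap. Both shares were near an even division, though the andromonoecious interval lay just above it.

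This shift was set beside that of other pairs at the same CDS positions. The members were chosen with their levels known, and some of the other pairs share a unigene. The place of the members among them is thus a description and no test. Between its highest and lowest library the share moved by 54.6 percentage points. Among 162 other such pairs with at least 100 reads in every library, the median move was 10.8 points, and 3 pairs (1.85%) moved by as much or more. Among the 47 of these pairs with at least 95% identity to the CDS in both unigenes, as the members have, the median was 11.8 points and 2 pairs (4.26%) moved by as much or more. Those 2 were Unigene51223 with Unigene51224 and Unigene10484 with Unigene10485, and the third, below that identity, was Unigene21290 with Unigene21291. All were named after their values were seen.

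**Figure D3:**
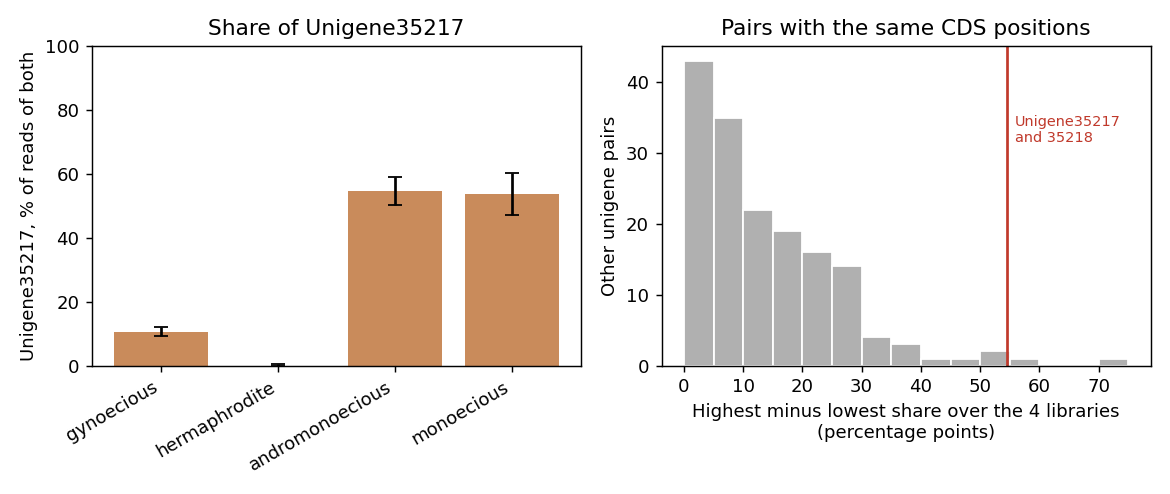
Left, share of Unigene35217 in the reads of both members (percent, exact 95% binomial intervals) in the 4 libraries. Right, number of other unigene pairs with the same CDS positions (vertical) by the move of the share between libraries in percentage points (horizontal). The red line at 54.6 points is the pair Unigene35217 and Unigene35218, with 3 of 162 other pairs at or beyond it.

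Because reads may be divided between them, the 2 members were also summed. The sum was 108 RPKM in the gynoecious, 43.3 in the hermaphrodite, 34.5 in the andromonoecious and 15.2 in the monoecious library. Relative to the monoecious library, and scaled by TMM, that is 6.55-fold, 2.59-fold and 2.37-fold in the first 3. The sum thus stood highest in the gynoecious and lowest in the monoecious library, as Unigene35218 alone did, while the hermaphrodite and andromonoecious sums lay close together.

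The next row of the BLAST table, 3745, holds Unigene26761, singled out after its values were seen. It is 412 nt long and matched positions 619 to 826 with 100% identity, just past the stretch of the pair. The bit scores of the 3 rows were 1080, 963 and 412. Whether all 3 belong to 1 CDS was not tested, since the CDS names are in doubt.

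Unigene26761 had 139 reads in the gynoecious, 51 in the hermaphrodite, 56 in the andromonoecious and 19 in the monoecious library. Relative to the monoecious library it was 6.86-fold higher in the gynoecious (4.23 to 11.7), 2.4-fold in the hermaphrodite (1.39 to 4.3) and 3.19-fold in the andromonoecious (1.87 to 5.68). These intervals hold the folds of the sum of the pair given above. They are wide, since the monoecious library had 19 reads, and Unigene26761 was picked with its values seen. The overlap is thus a description, and a shared origin was not tested.

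The 20 unigenes numbered within 10 of the pair were compared with it by counts of 0 and by the size of their range only. None was at 0 in a library (0 of 20). Their highest RPKM was 1.23 to 8.12 times their lowest, with a median of 2.08, and 4 of the 20 reached a ratio of 4. For Unigene35218 the ratio was 13.7, and for Unigene35217 it was 2.3 among the 3 libraries where it was found.

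The splits of 2 libraries against 2 are given for the members as a description, with no test, since they were chosen with these values known. For the a locus, Unigene35217 averaged 9.37 RPKM in the aa libraries and 9.76 in the AA libraries, and Unigene35218 29.5 and 51.9. Both overlapped between the sides, as the aa values of Unigene35218, 15.8 and 43.3, lay within the AA values of 7.08 and 96.8. In this split 23.6% of 34820 unigenes with at least 100 reads in total did not overlap.

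By the labelled g locus, Unigene35217 did not overlap between the sides. It had 11.4 and 18.7 RPKM in the libraries labelled gg, against 0 and 8.14 in those labelled GG. Such a lack of overlap held for 34.9% of these unigenes. Unigene35218 overlapped here, with 15.8 and 96.8 RPKM in the libraries labelled gg, against 7.08 and 43.3 in those labelled GG. These statements hold for the sample labels only. With the genotypes exchanged as in the headers named above, the gg side would hold the gynoecious and hermaphrodite libraries. That is the split by male flowers described next, in which Unigene35217 overlapped and Unigene35218 did not.

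In the split by male flowers, Unigene35218 did not overlap between the sides. It had 96.8 and 43.3 RPKM in the libraries without male flowers, against 15.8 and 7.08 in those with them, means of 70.0 and 11.4. Of the same 34820 unigenes, 41.5% did not overlap in this split. Unigene35217 had 11.4 and 0 RPKM without male flowers, against 18.7 and 8.14 with them, and overlapped.

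The patterns most like each member were taken from 2456 unigenes with a good BLAST match, at least 100 reads and a described product. The product names used were those of the library files, which are in doubt, so the nearest are nearest within that set only. Likeness was the root mean square difference of centred log2 reads over the 4 libraries. For Unigene35218 the nearest were Unigene41301 at 0.12 and Unigene32512 at 0.26. Unigene41301 had 354 reads in the gynoecious, 136 in the hermaphrodite, 56 in the andromonoecious and 22 in the monoecious library. For Unigene35217 the nearest was Unigene48986 at 0.25, with 188, 0, 334 and 202 reads in the same order. Of the 10 nearest, the comparison tables name Unigene3065, as Cullin-4, a scaffold of a ubiquitin ligase. It lay 0.82 from Unigene35217 and had 39, 0, 227 and 67 reads in that order. The members lay 3.9 from each other.

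The enzymes the members are labelled with were then looked up where the comparison tables name them. Those tables give chloroplastic NADP malate dehydrogenase (CDS MELO3C012389) as Unigene20233, which is 721 nt long, and isocitrate lyase as Unigene42502, which is 1117 nt long. None of those tables names a unigene as malate synthase, so no level is given for it. These unigenes were listed by the authors because they differed, so their direction is not independent evidence.

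Unigene20233, the named NADP malate dehydrogenase, was highest in the monoecious library. It had 179 reads in the gynoecious, 61 in the hermaphrodite, 76 in the andromonoecious and 353 in the monoecious library. That is 9.52 RPKM (8.17 to 11), 3.13 (2.39 to 4.02), 4.13 (3.26 to 5.17) and 18.6 (16.7 to 20.6). It was lower than in the monoecious library by 2.1-fold in the gynoecious (1.75 to 2.53), 6.48-fold in the hermaphrodite (4.93 to 8.65) and 4.29-fold in the andromonoecious (3.34 to 5.57). Unigene35218, which carries the same name in the library files, was lowest in the monoecious library.

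In the authors' deposited table the log2 ratio of the monoecious over the andromonoecious library for Unigene20233 was 2.17, with a p-value of 6.09e-42 and an FDR of 2.07e-40, which compare 2 libraries and not the conditions. The a locus split gave it a log2 change of -1.64 (SE 0.508), aa over AA, on log2(RPKM + 1). Its limma p adjusted with Benjamini-Hochberg over all unigenes was 1, so it was not called.

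Isocitrate lyase, the partner of malate synthase in the glyoxylate cycle, was also highest in the monoecious library. Unigene42502 had 710 reads in the gynoecious, 4047 in the hermaphrodite, 3733 in the andromonoecious and 11457 in the monoecious library. It was 17.2-fold lower in the gynoecious than in the monoecious library (16 to 18.6), 3.17-fold lower in the hermaphrodite (3.06 to 3.29) and 2.84-fold lower in the andromonoecious (2.73 to 2.94). The senescence marker DIN1 (Unigene50326) had 44 reads in the gynoecious, 142 in the hermaphrodite, 63 in the andromonoecious and 519 in the monoecious library, 12.6-fold lower in the gynoecious than in the monoecious (9.24 to 17.5). The seed marker late embryogenesis abundant protein D-29 (Unigene22441) had 8, 82, 164 and 203 reads in that order, 27.1-fold lower in the gynoecious than in the monoecious (13.5 to 63.6). Both were, like isocitrate lyase, highest in the monoecious and lowest in the gynoecious library, and their part in its levels was not tested. Both markers were also named because the authors listed them as differing, so their direction is not independent evidence. Unigene35218 was lowest in the monoecious library, and Unigene35217 in the hermaphrodite. In the split by the labelled g locus, isocitrate lyase (Unigene42502) changed by -1.99 on the log2 scale (SE 0.825, gg over GG, limma adjusted p 0.914). Without the andromonoecious library that change was -3.18. With the genotypes exchanged, this split would be that by male flowers, where Unigene42502 changed by -1.955 (SE 0.82, limma adjusted p 0.601).

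Enzymes of fatty acid beta-oxidation, which supply acetyl-CoA to the glyoxylate cycle, did not move as 1 group. Acyl-coenzyme A oxidase (Unigene65530), which starts each round, had 39 reads in the gynoecious, 193 in the hermaphrodite, 135 in the andromonoecious and 209 in the monoecious library. Acyl-coenzyme A oxidase 3 (Unigene53873) had 230, 600, 244 and 501 reads in that order. The 3-ketoacyl-CoA thiolase Unigene1489, which ends each round, had 71, 55, 31 and 16 reads. The oxidases were thus lowest in the gynoecious library and the thiolase highest there, though Unigene53873 was close to its andromonoecious level (17.8 RPKM in the gynoecious and 19.3 in the andromonoecious library).

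Of the enzymes that make or use malate, phosphoenolpyruvate carboxylase 2 (Unigene3694), which makes oxaloacetate, had 94 reads in the gynoecious, 112 in the hermaphrodite, 22 in the andromonoecious and 27 in the monoecious library. The NAD-dependent malic enzymes, which turn malate into pyruvate, had 71, 167, 30 and 56 reads (62 kDa isoform, Unigene47253) and 66, 61, 83 and 82 reads (59 kDa isoform, Unigene19241). The carboxylase was higher in both libraries without male flowers than in both with them, which the malic enzymes also showed for the 62 kDa isoform and not for the 59 kDa isoform. Of 34820 unigenes, 41.5% did not overlap in this split. The limma log2 change of Unigene3694, without over with male flowers, was 1.45 (SE 0.39, adjusted p 0.586).

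Malate transporters were low. Aluminum-activated malate transporter 8 (Unigene15250) had 2 reads in the gynoecious, 21 in the hermaphrodite, 132 in the andromonoecious and 17 in the monoecious library, and was 8.4-fold higher in the andromonoecious than in the monoecious (5.05 to 14.9). Aluminum-activated malate transporter 4 (Unigene20248) had 11, 68, 11 and 30 reads in that order. The tonoplast dicarboxylate transporter (Unigene70905), which carries malate into the vacuole, had 2, 23, 21 and 43 reads. All 3 were lowest in the gynoecious library, where Unigene20248 was level with the andromonoecious.

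In the tricarboxylic acid cycle, the beta subunit of succinyl-CoA ligase (Unigene6327) had 266 reads in the gynoecious, 183 in the hermaphrodite, 122 in the andromonoecious and 71 in the monoecious library. Its order was that of Unigene35218. NADP isocitrate dehydrogenase (Unigene23295) had 569, 843, 553 and 603 reads and varied less.

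In photorespiration, serine--glyoxylate aminotransferase (Unigene5942), which uses up glyoxylate in the peroxisome, had 487 reads in the gynoecious, 1230 in the hermaphrodite, 287 in the andromonoecious and 1092 in the monoecious library. Glycine dehydrogenase (Unigene3677) had 458, 1604, 317 and 1022 reads, and the peroxisomal 2-hydroxy-acid oxidase GLO1 (Unigene66358) 2, 21, 7 and 16. All 3 were lower in both libraries labelled gg than in both labelled GG, a split in which 34.9% of 34820 unigenes did not overlap. The limma log2 changes, gg over GG, were -1.63 for Unigene3677 (SE 0.447) and -1.56 for Unigene5942 (SE 0.444), both with an adjusted p of 0.914. With the genotypes exchanged, all 3 would overlap between the gg and GG sides.

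Of the list of thioredoxin and ferredoxin proteins, taken by name only, thioredoxin H-type 1 (Unigene5786) had 2221 reads in the gynoecious, 2559 in the hermaphrodite, 3031 in the andromonoecious and 1471 in the monoecious library. Root-type ferredoxin--NADP reductase (Unigene4378) had 2415, 3687, 2951 and 2924 reads, and the thioredoxin-like protein CXXS1 (Unigene56926) 3, 34, 37 and 112. The last was lowest in the gynoecious library, as isocitrate lyase was. Of the peroxisome proteins, peroxisomal membrane protein 13 (Unigene13333) had 878, 1135, 907 and 691 reads, while PMP22 (Unigene1740) and Unigene39269 had at most 26 and 14 reads in a library.

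**Figure D4:**
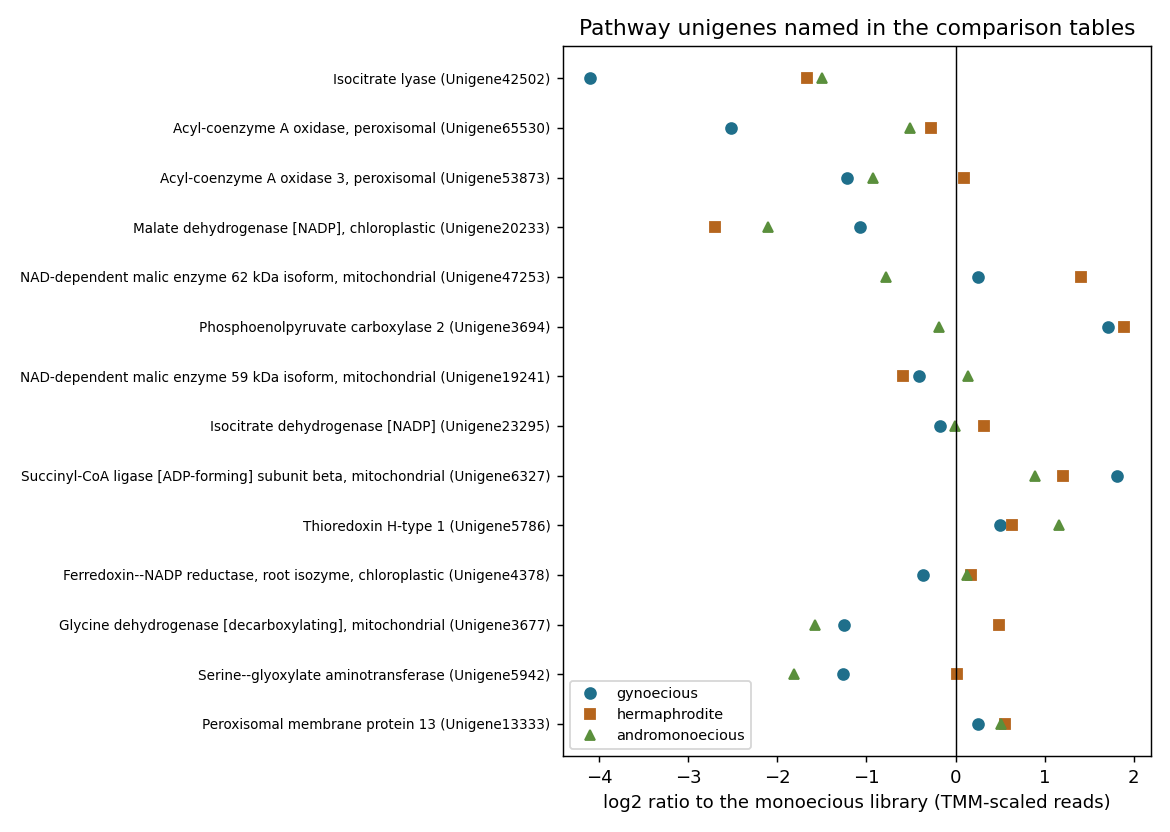
Log2 ratio of TMM-scaled reads to the monoecious library (horizontal) for the 14 pathway unigenes with at least 200 reads that the comparison tables name, in the gynoecious (circles), hermaphrodite (squares) and andromonoecious (triangles) libraries. Isocitrate lyase and NADP malate dehydrogenase lie left of 0 in all 3, and succinyl-CoA ligase lies right of 0.

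Over all 9 lists the comparison tables name 34 unigenes. At least 4-fold apart from the monoecious library were 5 of the 18 with at least 50 reads in the gynoecious pair, 2 of 21 in the hermaphrodite pair and 3 of 18 in the andromonoecious pair. In the gynoecious pair, 1 was higher, the beta-oxidation protein AIM1 (Unigene79323, 17.5-fold with an interval of 5.69 to 87.4), and 4 were lower, Unigene42502, Unigene65530, Unigene56926 and Unigene20761. In the hermaphrodite pair Unigene40168, a peroxisomal enoyl-CoA hydratase, was higher and Unigene20233 lower. In the andromonoecious pair Unigene15250 was higher, and Unigene20233 and Unigene20761, a thioredoxin-like protein, were lower.

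Of all unigenes named in the comparison tables, which the authors chose as differing, 408 of 898 (45.4%), 125 of 910 (13.7%) and 157 of 859 (18.3%) were at least 4-fold apart in these 3 pairs. Of all unigenes, 11.5%, 4.56% and 4.32% were. The median log2 ratios of the lists were -0.39, 0.32 and -0.64, beside 0.22, 0.15 and 0.23 over all unigenes named in the comparison tables and 0.02, 0.03 and 0.05 over all unigenes. By the names of the library files the lists held 94 unigenes other than the 2 members, and 8 of 50, 2 of 53 and 1 of 48 were at least 4-fold apart in the same pairs.

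The 3 splits were tested with limma over 49238 unigenes, with 2 sex types as the replicates of a side. It called 6 unigenes for the a locus (0.0122%), 0 for the labelled g locus (0.0%) and 1 for male flowers (0.00203%) at a Benjamini-Hochberg adjusted p under 0.05. Of the 30 list unigenes of the comparison tables that were tested, 0 were called in each split, by limma, edgeR or DESeq2. At an unadjusted p under 0.05 limma had 2 for the a locus, 7 for the labelled g locus and 4 for male flowers. Of 69 list unigenes by the names of the library files 0 were called, with 2, 7 and 5 at an unadjusted p under 0.05.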

How the data were processed

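Per the file headers, the authors deposited RPKM for 76260 unigenes in 1 library per sex type. Their 4 comparison tables also give raw read counts, lengths, log2 ratios of RPKM, p-values and FDR, and their BLAST table gives percent identity, match positions and a bit score, per the file headers. No source used here names the aligner, assembler or genome build.

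The members and gene lists were chosen with earlier results of these data known. Whole reads were recovered from RPKM with the library totals of the headers, taking the shortest length from 200 to 20000 nt that gave whole reads in all 4 libraries (100% of unigenes). Of 1049 listed unigenes, 996 had the same length and counts as the authors give. The members' BLAST matches end at the recovered lengths of 596 and 589 nt.

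Folds use TMM-scaled reads (edgeR 4.0.16) with exact Clopper-Pearson intervals at 95%, and a floor of 3 reads against 0. Shares of unigenes at least 4-fold apart are over those that reach 50 reads in both libraries together, with a prior count of 1. limma 3.58.1 was run on log2(RPKM + 1), which understates folds of low unigenes, after filterByExpr (minimum count 10). DESeq2 1.42.0 and edgeR were run on the recovered reads as alternatives, and the scripts were tested on simulated data. A good BLAST match has at least 95% identity over at least 100 nt and 30% of the unigene.

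Named were the members, unigenes named as malate synthase, isocitrate lyase or malate dehydrogenase, the 3 of each other list with the most reads, and the nearest patterns. Because the namings disagree, this rule was applied to the names in the comparison tables, a choice made after the files were seen. The 16 per-library columns of the locus tables were not used.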

Additional observations from a re-analysis of the deposited data

How the results depend on the processing

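No paired analysis was possible because each sex type has 1 library. Under library totals or DESeq2 size factors, all 18 values for member folds with a counting interval stayed within it. Of the 6 values for bounds against 0 reads, 5 stayed within the Poisson interval of the other library's reads. The bound for Unigene35217 in hermaphrodite over andromonoecious moved to 0.00993 under library totals, against 0.00868. Of the 5 patterns nearest to each member, 2 for Unigene35217 and 2 for Unigene35218 were kept when at least 500 reads were asked for. Counts of list unigenes at least 4-fold apart from the monoecious library, by the names of the library files, were 8 in the gynoecious, 2 in the hermaphrodite and 1 in the andromonoecious pair. They were 13, 4 and 8 with a minimum of 10 reads, 1 in the hermaphrodite pair for well matched unigenes, and 5 in the gynoecious and 3 in the andromonoecious pair by the comparison tables, a naming added after the data were seen. The cause was not tested.

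Leaving out 1 library gave 0 to 1 list calls for the a locus and 0 to 1 for the labelled g locus, and 0 for male flowers. The call for the a locus was Unigene71615 without the monoecious library, and for the labelled g locus Unigene71615 without the andromonoecious, beside Unigene42502 by the comparison tables. A lone library is then assumed to vary like the other side. The other alternatives gave 0 calls in each split. Over all unigenes, limma called 6 for the a locus, 0 for the labelled g locus and 1 for male flowers, and edgeR 0 in each. The 6 for the a locus fell to 0 under pseudocount 0.1, without the filter and with either set of scaling factors, and the 1 for male flowers under the first and second of these. DESeq2 called 16 higher and 10 lower for the a locus, 10 and 20 for the labelled g locus, and 65 and 215 for male flowers. Without the monoecious library limma called 209 higher and 49 lower for the a locus. Without the andromonoecious library it called 52 and 153 for the labelled g locus, and without the hermaphrodite 11 and 78 for male flowers. The members stand in no comparison table, so their recovered reads could not be set beside listed raw counts. Having 1 library per sex type and an unknown division of reads between unigenes of like sequence limits every value here, and depth limits values under about 50 reads.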
